A study of Drosophila melanogaster with 2 samples.

Results

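The chemosensory receptor genes of Drosophila melanogaster were taken as the annotated protein-coding genes whose symbols start with Or, Gr or Ir followed by a number and a lower-case letter. They numbered 179 of 13945 protein-coding genes on the 6 chromosome arms, and comprised 59 odorant receptor (Or), 60 gustatory receptor (Gr) and 60 ionotropic receptor (Ir) genes. Another 6 matching symbols belonged to pseudogenes and were left out, and the odorant coreceptor gene Orco lies outside the pattern. The study mapped binding of E(spl)m8-HLH, a Notch-responsive bHLH-Orange repressor, by ChIP-seq, the sequencing of DNA recovered with an antibody, here one to GFP. The only group was a fly line carrying a transgene for E(spl)m8-HLH with GFP at its C-terminus, and per the labels the chromatin came from whole embryos of mixed sex aged 4 to 14 h, in 2 biological replicates numbered 2 and 3. No second condition was compared, and the labels name no promoter for the fusion.

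Odorant receptors are membrane proteins of olfactory neurons that form ion channels with the coreceptor Orco. Gustatory receptors respond to sugars, bitter compounds and carbon dioxide, and ionotropic receptors are relatives of ionotropic glutamate receptors that sense acids, amines, humidity and temperature. Each receptor is typically expressed in a small set of sensory neurons late in their differentiation, whereas E(spl) proteins act early, when neural precursors are selected. In whole embryos, binding in few cells and weak binding in many cells cannot be told apart.

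The authors' optimal set held 6152 peaks and was identical to the 6152 strongest of the 30000 peaks called on both replicates together, here called the pooled list. Each peak has a summit, the position of highest signal, and a signal value, the authors' enrichment score, whose scale the sources used here do not state. It serves only to rank peaks within a list. Read depth per replicate is unknown. A gene was counted as having a summit when one fell within its annotated body or its flanks of 2 kb. Intervals in parentheses are exact binomial 95% intervals for shares of genes. They cover counting error only and take genes as independent, although 77 of the 179 receptor genes share a window with another receptor gene.

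4 stretches of sequence show the 2 kinds of site found near receptor genes. The first pair are the strongest optimal summits whose nearest transcription start site (TSS) belonged to the receptor gene, at the bitter receptor gene Gr89a and at Ir67b. The second pair are the strongest whose nearest TSS belonged to a neighbour, at Or85f beside the ribosomal protein gene RpL34b and at Ir68b beside yps, which encodes a Y-box protein. All are plus-strand sequence from the RefSeq copy of the Release 6 genome (dm6 coordinates), within 50 bp of the summit, and the last is cut at an annotated exon. They cover chr3R:16497555-16497655, chr3L:10428186-10428286, chr3R:9401281-9401381 and chr3L:12125151-12125213, in that order. Capitals mark matches, on either strand, to CACGCG, a site of Hairy/E(spl) repressors, to the E-box CANNTG and its form CACGTG, to ATCGATA, the element of DREF and BEAF-32, or to the TATA box TATAAA.
Gr89a: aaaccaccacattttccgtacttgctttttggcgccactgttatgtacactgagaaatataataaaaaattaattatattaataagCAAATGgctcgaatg
Ir67b: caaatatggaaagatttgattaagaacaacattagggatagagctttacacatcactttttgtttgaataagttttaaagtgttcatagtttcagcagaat
Or85f: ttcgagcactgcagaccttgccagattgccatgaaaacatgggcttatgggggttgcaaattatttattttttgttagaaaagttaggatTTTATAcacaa
Ir68b: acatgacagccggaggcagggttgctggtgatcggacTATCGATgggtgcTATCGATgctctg
The yps-side stretch holds 2 copies of ATCGATA, both on the minus strand. The Ir67b stretch holds none of the 5 motifs, and the Gr89a stretch holds 1 E-box, CAAATG.

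Receptor genes were rarely near an optimal summit. Of the 179, 12 had one (6.70%, 3.51 to 11.4), against 5137 of all 13945 protein-coding genes (36.8%). By family the counts were 3 of 59 Or genes (5.08%, 1.06 to 14.1), 5 of 60 Gr genes (8.33%, 2.76 to 18.4) and 4 of 60 Ir genes (6.67%, 1.85 to 16.2). The 3 family intervals overlap, and the differences between families were not tested. Receptor genes are short, with a median body of 1691 bp against 2166 bp for all protein-coding genes. Among genes with bodies of 1 to 2 kb, 9 of 127 receptor genes had an optimal summit (7.09%), against 30.0% of 3845 protein-coding genes. Counted per length, the merged windows of receptor genes held 16 optimal summits in 1013 kb, or 15.8 per Mb (9.03 to 25.6, exact Poisson interval), against 51.2 per Mb in the merged windows of all protein-coding genes and 46.0 per Mb over the arms. The family densities were 12.9 per Mb for Or (3.52 to 33.1), 30.1 for Gr (13.0 to 59.2) and 8.98 for Ir genes (2.45 to 23.0), with overlapping intervals.

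No optimal summit lay inside the body of any of the 179 receptor genes. In contrast, 13.3% of all protein-coding genes had one in the body. With wider flanks the receptor count went up to 5 genes at 500 bp, 7 at 1 kb, 12 at 2 kb and 33 (18.4%) at 5 kb, while the share of all protein-coding genes was 27.7%, 30.8%, 36.8% and 50.9% at these flanks. At 5 kb the families stood further apart, with 4 of 59 Or genes (6.78%), 16 of 60 Gr genes (26.7%) and 13 of 60 Ir genes (21.7%). This spread was not tested. At this flank 1 summit can count for several tandem genes, as for Gr64d and Gr64e, both 4820 bp from it. Already at 2 kb, 34 Gr and 28 Ir genes share a window with another receptor gene, against 15 Or genes. At the limit of the window, Ir7g was counted with a summit 1944 bp from its body, and Gr66a, a receptor for bitter compounds, and Ir48c were not, at 2104 and 2312 bp. The nearest optimal summit lay at a median of 17558 bp from receptor gene bodies, against 4771 bp for all protein-coding genes. That median was 23193 bp for Or, 10153.5 bp for Gr and 18075.5 bp for Ir genes.

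**Figure D1:**
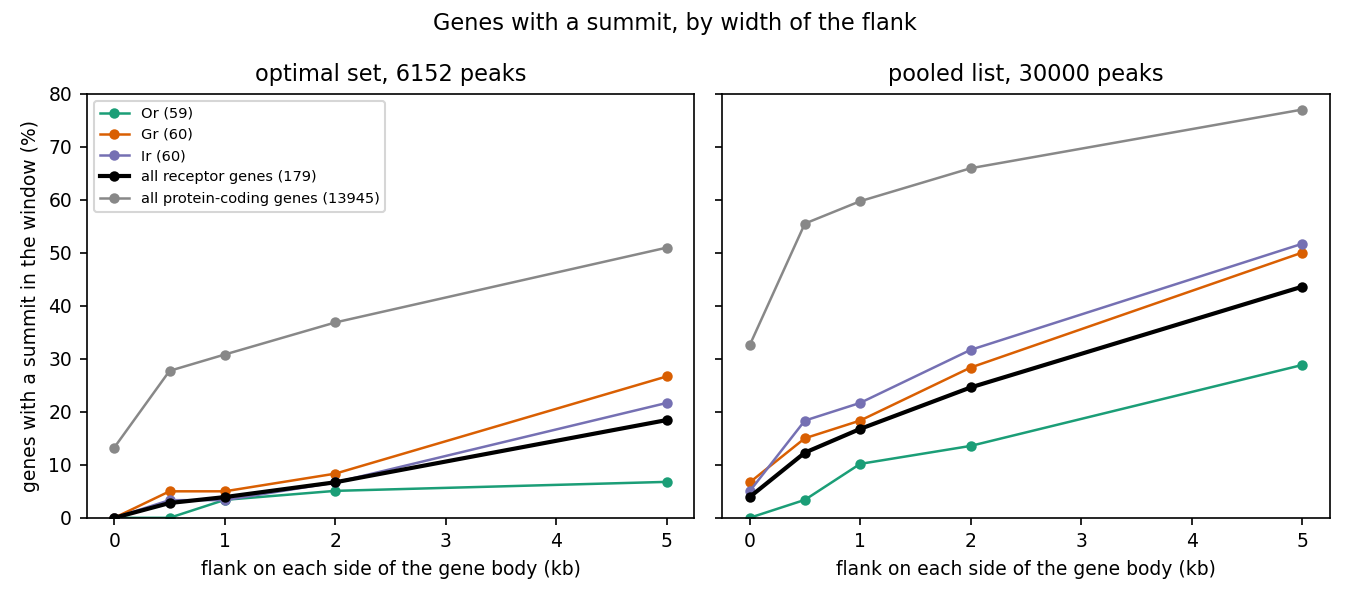
Share of genes (%) with a summit in the gene body plus a flank of 0, 0.5, 1, 2 or 5 kb, for the optimal set (left) and the pooled list (right). At each flank the 179 receptor genes (black) lie below all protein-coding genes (grey), with 6.70% against 36.8% at 2 kb in the optimal set, and the Or genes lie lowest of the families at 5 kb.

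No receptor gene had an optimal summit within 500 bp of its own TSS. 0 of 179 allows a share of up to 1.68% (taking 3 counts as the limit for a count of 0), against 20.4% of all protein-coding genes. In the pooled list 8 receptor genes had one (4.47%), against 47.9% of protein-coding genes. For 130 of the 179 receptor genes (72.6%) the annotated start coincides with the first coding base, against 3.52% of all protein-coding genes, so the annotated TSS of most receptor genes includes no leader. This was so for 43 Or, 39 Gr and 48 Ir genes. The part of incomplete starts in the distances was not tested. The annotated body begins at the same start, so it also sets where the upstream flank of the window lies.

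Most of the summits near receptor genes were closer to the start of another gene. Of the 16 optimal summits, 11 had their nearest TSS at a neighbour and 5 at the receptor gene itself, and 8 lay within 500 bp of their nearest TSS, in each case that of a neighbour. The median distance was 639.5 bp to the nearest TSS and 2335 bp to the receptor gene's own TSS. Downstream of the receptor gene lay 13 of the 16, and 3 lay upstream. Of the 89 pooled summits in receptor windows, 39 lay downstream, 41 upstream and 9 in the body. The sides were not counted for other genes, so the split of the 16 has no background share. Counted by gene, 4 receptor genes (2.23%, 0.612 to 5.62) had a summit nearest to their own TSS, against 21.0% of all protein-coding genes. These were Or67d, Ir67b, Gr89a and Gr93a. Taken only among genes with an optimal summit, they were 4 of 12 receptor genes, against 2922 of 5137 protein-coding genes. Within bodies of 1 to 2 kb the counts were 3 of 9 receptor genes and 526 of 1153 protein-coding genes. These differences were not tested. The share of single summits nearest to a neighbour was not counted over all genes, so 11 of 16 has no background.

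**Figure D2:**
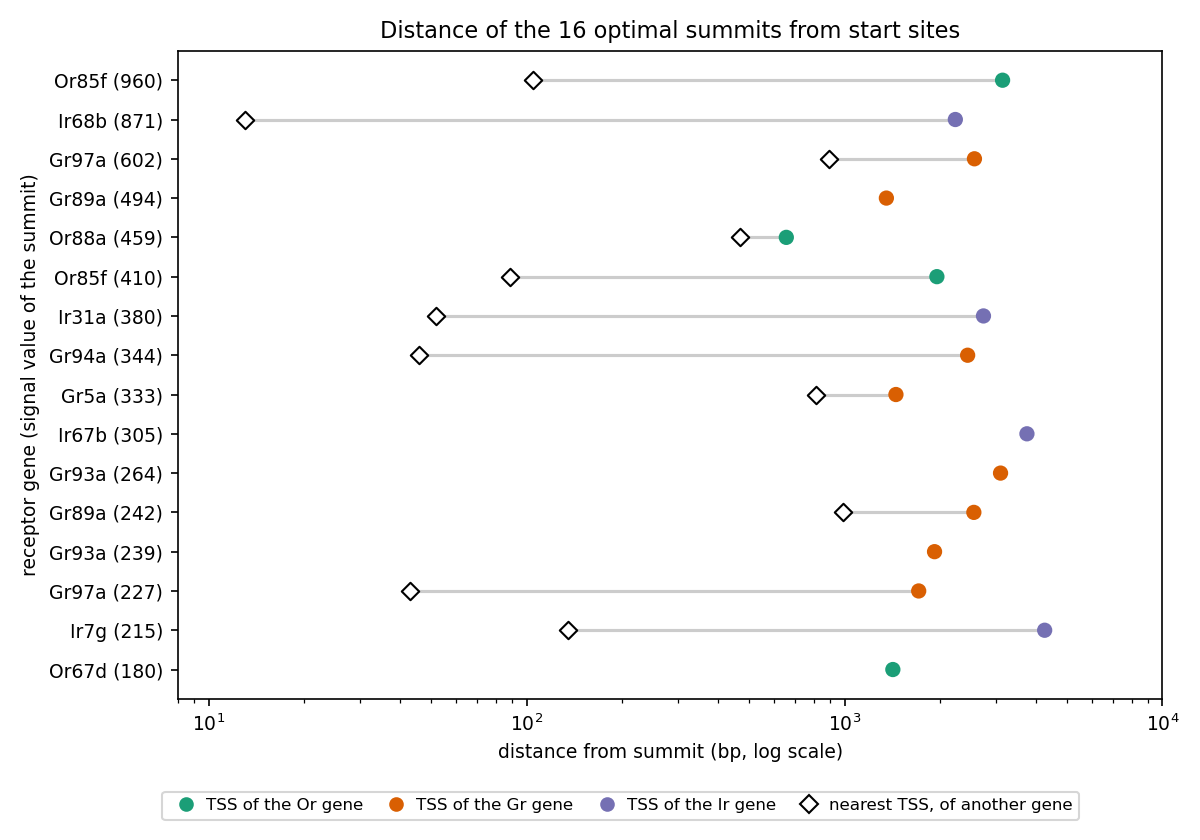
Distance (bp, log scale) from each of the 16 optimal summits to the TSS of the receptor gene (filled circles, coloured by family) and, where another gene is nearer, to that gene's TSS (open diamonds), ordered by signal value. The 2 strongest summits, 960 at Or85f and 871 at Ir68b, lie 105 and 13 bp from a neighbour's start and over 2 kb from the receptor's.

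The 4 genes nearest to their own summit differ in position. At Gr89a (chr3R:16497817-16498959, minus strand), which is widely expressed in bitter-sensing neurons, a summit of signal 494 lay 212 bp beyond the 3' end of the gene and 1354 bp from its TSS, at rank 1333 in replicate 2 and 1557 in replicate 3. A weaker Gr89a summit of 242, at 16496408, lay 986 bp upstream of the cadherin gene Cad89D. At Gr93a (chr3R:21832503-21834013, plus strand), needed for the taste of caffeine, both summits lay downstream of the gene, with signals of 239 and 264 at 1919 and 3095 bp from its TSS. The nearer of the 2 held rank 3951 in replicate 2 and 4287 in replicate 3, and the farther 3994 and 3264. No other protein-coding gene lay within 5 kb of Gr93a. At Ir67b (chr3L:10429689-10431983, minus strand) a summit of 305 lay 1453 bp beyond the 3' end and 3747 bp from the TSS, at rank 3324 in replicate 2 and 2676 in replicate 3. Or67d (chr3L:10273204-10274624, plus strand) encodes the receptor for the male pheromone cis-vaccenyl acetate. Its summit at 10271785 was the only one of these 5 upstream of its gene, at 1419 bp from the TSS, and was the weakest of all 16, with a signal of 180, rank 5337 in replicate 2 and rank 6228 in replicate 3. The 5 summits nearest to a receptor's own TSS had a median signal of 264 (180 to 494), against 380 (215 to 960) for the 11 nearest to another gene.

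**Figure D3:**
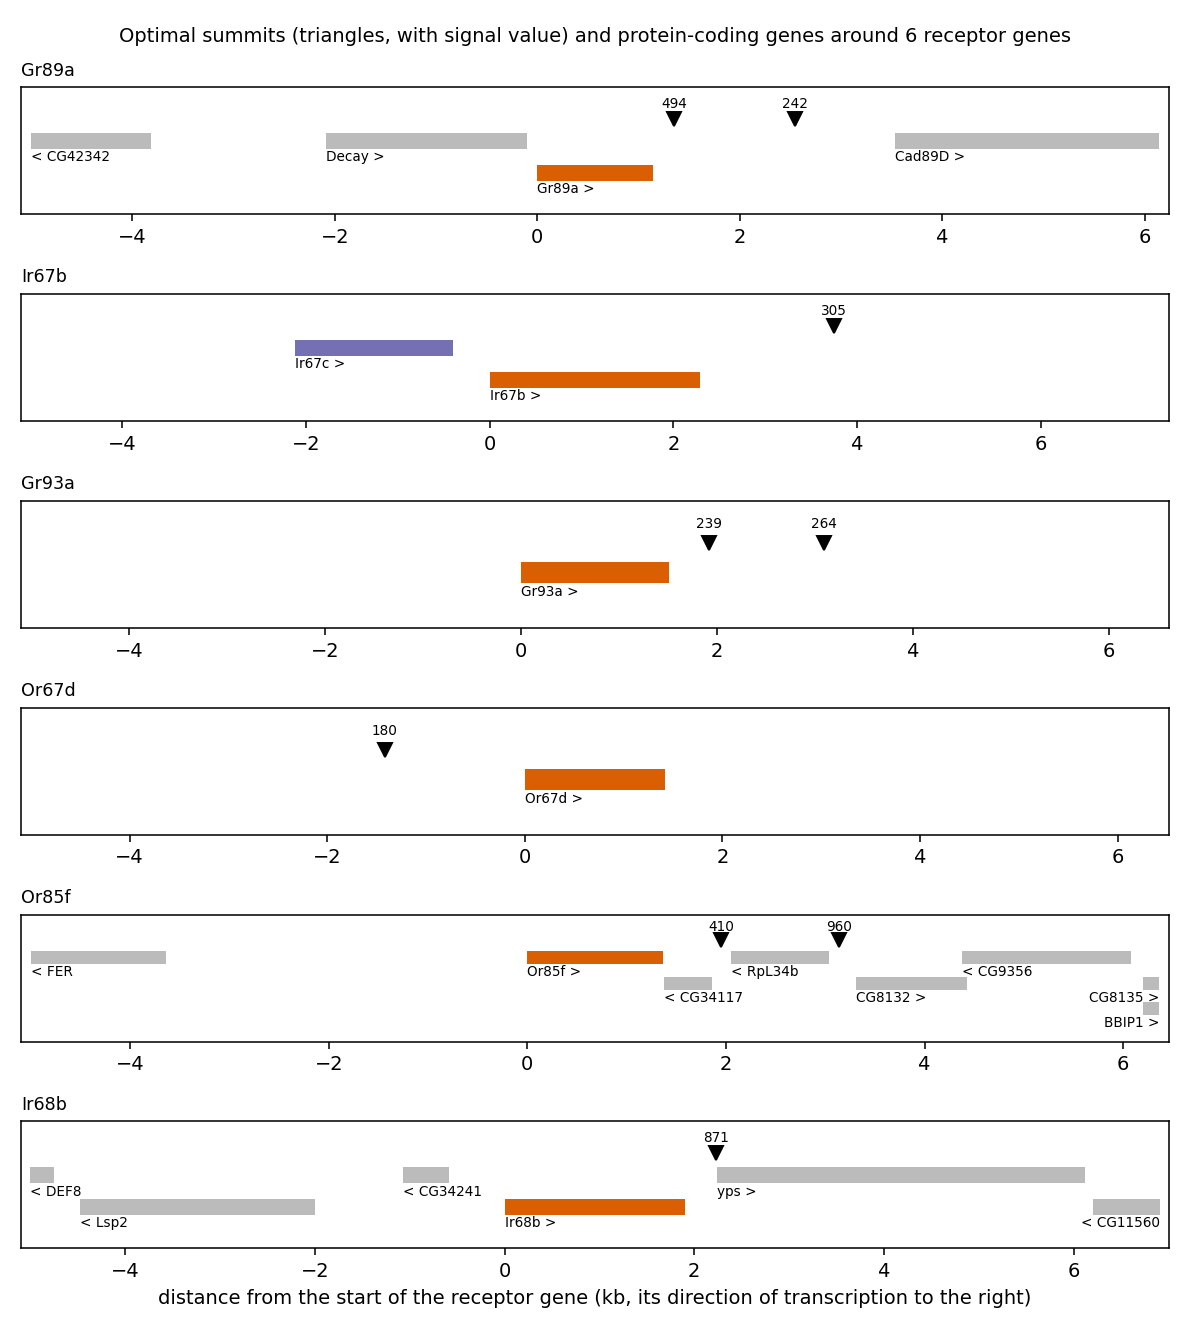
Protein-coding genes (bars) and optimal summits (triangles with signal value) around 6 receptor genes, as distance (kb) from the start of the receptor gene, which is drawn in orange and reads to the right; another receptor gene is purple and other genes are grey, and an arrowhead beside each name gives its direction. Gr93a and Or67d stand alone within 5 kb, whereas the summits at Or85f and Ir68b lie at the starts of RpL34b, CG34117 and yps.

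The summits closer to a neighbour sat mostly at the starts of those neighbours. Or85f (chr3R:9398190-9399551, plus strand) had the strongest summit at any receptor gene, 960, at 105 bp upstream of RpL34b, and a second of 410 at 89 bp upstream of CG34117. The first ranked 286 in replicate 2 and 601 in replicate 3. The summit of 871 at Ir68b (chr3L:12125487-12127394, minus strand) lay 13 bp upstream of yps and ranked 388 and 720. The Ir31a summit of 380 lay 52 bp upstream of a start shared by Ip259 and the ribosomal protein gene RpS27A, and ranked 1515 and 3356. At Gr94a, the summit of 344 lay 46 bp upstream of p53, the tumour suppressor homologue, and at Ir7g the summit of 215 lay 135 bp upstream of Acat1, an acetyl-CoA acetyltransferase gene. Gr97a had summits of 602 and 227 at 894 and 43 bp downstream of the start of Tsp97E, a tetraspanin gene; these lay in an intron and an exon of Tsp97E.

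Or88a and Gr5a had summits upstream of their start that were nearer to a neighbour. Or88a, a pheromone receptor of trichoid sensilla, had a summit of 459 at 656 bp upstream of its own TSS and 468 bp upstream of that of CG12402. It ranked 1469 in replicate 2 and 1675 in replicate 3. Gr5a, the trehalose receptor gene, had a summit of 333 at 1451 bp upstream of its TSS that lay in an intron of Tre1, a G protein-coupled receptor gene, 811 bp downstream of its start. This ranked 3126 in replicate 2 and 2020 in replicate 3.

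Receptor genes had a non-receptor gene starting nearby less often than protein-coding genes at large, a difference that was not tested. The window of 61 of the 179 (34.1%) held the TSS of a protein-coding gene that is not a receptor, and 76.3% of all protein-coding genes had such a neighbour. Starts of other receptor genes did not count as neighbours, whereas tandem relatives of other genes did. This definition can lower the receptor share. It also makes the 2 groups without a neighbour unlike, since such a receptor gene can have another receptor gene's start in its window. Among receptor genes with such a neighbour, 8 of 61 had an optimal summit (13.1%, 5.84 to 24.2), against 41.5% of protein-coding genes with one. Among receptor genes without, 4 of 118 had one (3.39%, 0.931 to 8.45), against 21.8% of protein-coding genes without. These 4 were the genes nearest to their own summit, which the split largely sets in advance. Of 722 protein-coding genes without a neighbour that had an optimal summit, 631 had one nearest to their own TSS. None of the 61 receptor genes with a neighbour had a summit nearest to its own TSS, against 21.5% of protein-coding genes with a neighbour. In the pooled list, 26 of 61 receptor genes with a neighbour (42.6%) had a summit, against 70.7% of protein-coding genes with one, and 18 of 118 without (15.3%), against 50.4%. Receptor genes that share a window with another receptor gene had an optimal summit in 2 of 77 cases and the others in 10 of 102. The exact binomial intervals of these shares overlap, and the difference was not tested. Sharing of windows was not counted among protein-coding genes at large, so this split has no background share.

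All 16 optimal summits at receptor genes fell inside a peak of both replicate lists, so all 12 genes had one in both, and 35.9% of all protein-coding genes had such a summit. The optimal set is chosen for agreement between replicates, so this is a description. The ranks of the 16 ran from 286 to 5624 in the replicate 2 list and from 601 to 6228 in the replicate 3 list. Each list held 30000 peaks, and 12 of the 16 ranked better in replicate 2. Such ranks were not compared over the whole optimal set, so 12 cannot be read as high or low. The 2 replicate lists give their own signal for each summit. For the strongest Or85f summit it was 585 in replicate 2 and 385 in replicate 3, and for the Ir68b summit 514 and 355. The Gr89a summit nearest to its own gene had 265 in replicate 2 and 229 in replicate 3. Ir67b had 140 and 161, the Gr93a summits 122 and 118 (the nearer) and 121 and 141 (the farther), and Or67d 95.4 and 90.5. Signals are not set on a common scale between lists, so a higher value in one replicate is not a difference in binding. The median pooled signal of the 16 was 339 (180 to 960), against 289.8 (169 to 5071) in the whole optimal set. Among the strongest 1000 pooled peaks, summits fell at 2 receptor genes (1.12%), Or85f and Ir68b, against 9.27% of protein-coding genes.

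**Figure D4:**
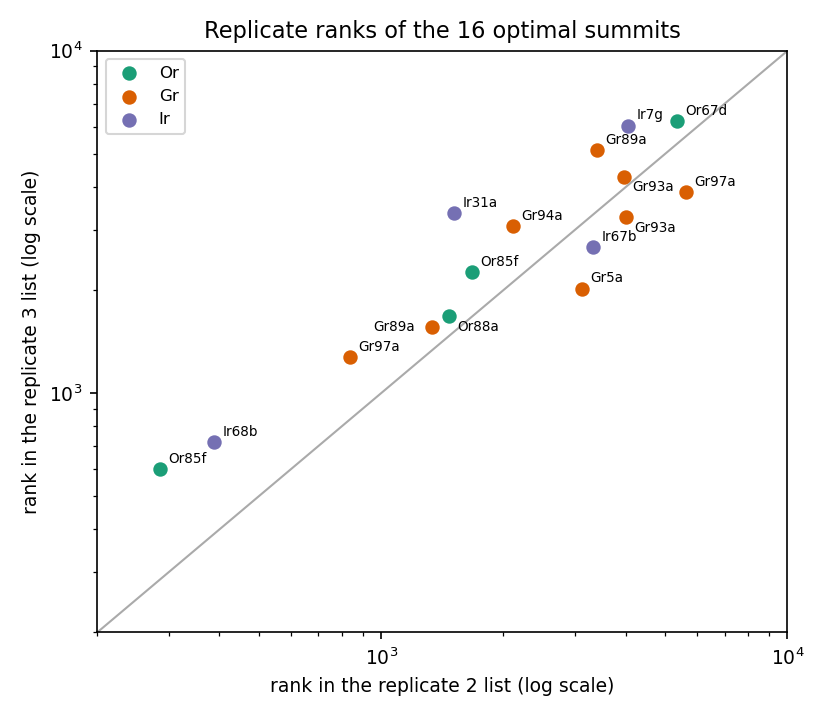
Rank of each of the 16 optimal summits at receptor genes in the replicate 2 list (x axis) and the replicate 3 list (y axis), both on log scales, labelled by gene and coloured by family; the line marks equal ranks. The points run along the line, from Or85f at 286 and 601 to Or67d at 5337 and 6228, and 12 of 16 lie above it.

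The weaker peaks of the pooled list added 32 receptor genes, for 44 in all (24.6%, 18.5 to 31.6), against 65.9% of all protein-coding genes. The pooled list was taken whole, whatever the −log10 q-value of its peaks, which is higher for better support. That value ran from 0.323 to 4.21, with a median of 1.44. Some added genes rest on peaks of low support, such as Or65b, whose only pooled summit had 0.337. A pooled summit alone therefore does not establish binding. Within bodies of 1 to 2 kb the shares were 25.2% of receptor genes and 60.4% of protein-coding genes. By family, 8 of 59 Or genes (13.6%, 6.04 to 25.0), 17 of 60 Gr genes (28.3%, 17.5 to 41.4) and 19 of 60 Ir genes (31.7%, 20.3 to 45.0) had a pooled summit. At this flank Or genes had the lowest share of the families in both lists, with overlapping intervals. Per Mb, Ir genes were lowest in the optimal set, also with overlapping intervals and on 4 summits each for Ir and Or. The Ir length includes the bodies of Ir41a (104437 bp) and Ir40a (24851 bp), which had no summit. In the pooled list 23 receptor genes (12.8%) had a summit nearest to their own TSS, against 47.9% of protein-coding genes. The signal of the 89 pooled summits in receptor windows had a median of 78.5, against a median of 76.7 over all 30000 pooled summits. Of the 89, 54 fell inside a peak of both replicate lists. This was not counted over the whole pooled list, so 54 cannot be read as high or low.

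**Figure D5:**
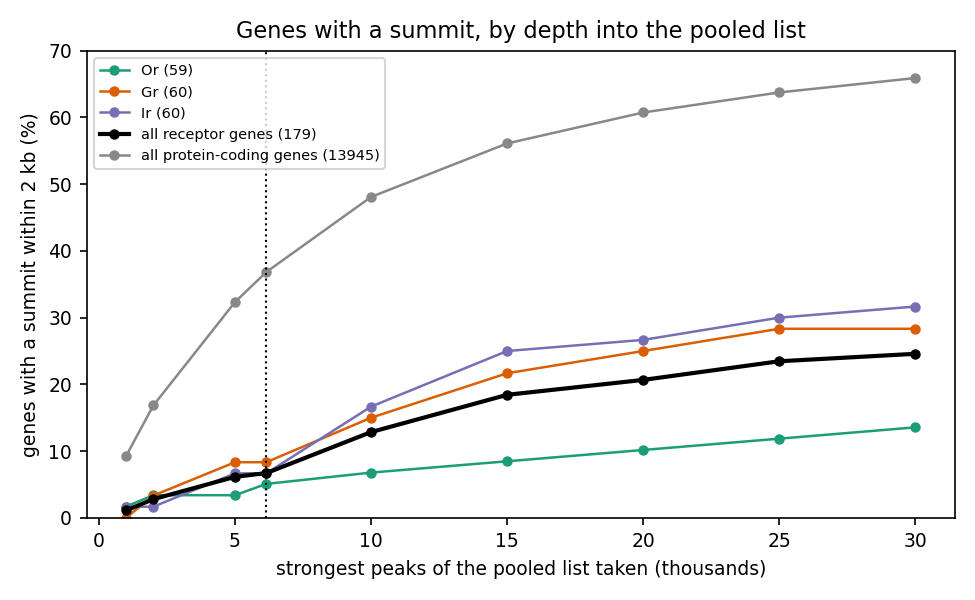
Share of genes (%) with a summit within 2 kb when only the strongest peaks of the pooled list are taken (x axis, number of peaks divided by 1000), for the 3 families, all 179 receptor genes and all 13945 protein-coding genes; the dotted line marks the 6152 peaks of the optimal set. With all 30000 peaks the share is 24.6% for receptor genes, against 65.9% for protein-coding genes, and 13.6% for Or genes.

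Among receptor genes outside the optimal set, the strongest pooled summits were at Or56a, Ir93a and Gr77a. Or56a, the receptor for geosmin, had a summit of 162 (rank 6471) at 2409 bp from its TSS, beyond its 3' end. It stood at rank 12680 in replicate 2 and 4078 in replicate 3. Ir93a, a coreceptor for cooling and humidity, had one of 152 in an exon of the ribosomal protein gene RpS30, 17 bp from the start of that gene. The Gr77a summit of 149.5 lay 56 bp beyond the gene, in an intron of CG13252, and had no replicate 3 peak. Gr39b (146, at 147 bp upstream of CG8665), Ir60e (145, at 3 bp upstream of CG13585) and Gr63a (122, at 57 bp upstream of Lamtor4) had theirs at neighbours' starts. Gr63a forms the carbon dioxide receptor with Gr21a. The sugar receptor gene Gr64a (118, in an exon of CG11594) and the coreceptor gene Ir76b (118, at 182 bp upstream of CG14187) were likewise nearer to a neighbour. The Gr64a summit also had no replicate 3 peak. Ir48c (120, in an intron of ths) and Ir67c (114, at 315 bp upstream of its own TSS) were nearest to their own start.

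Of 28 well known receptors, 2 had an optimal summit (Or67d and Gr5a), 10 had a pooled summit only and 16 had none in the pooled list. Over all protein-coding genes 36.8% had an optimal summit and 65.9% a pooled one. With no pooled summit were the food odour receptors Or22a, Or42b, Or59b, Or85a and Or92a, the pheromone receptor Or47b, the fructose receptor Gr43a and the sugar coreceptor Gr64f. Gr28b, which acts in warmth and light sensing, and the bitter receptors Gr32a, Gr33a and Gr66a had none either, nor had the coreceptor Ir8a, the humidity receptor Ir40a, the acid receptor Ir64a and Ir84a, a receptor for phenylacetic acid. Gr21a had a pooled summit of 75.0, nearest to CG13947, and the sugar receptor Gr61a one of 57.3 inside its body. The Gr21a summit had no replicate 3 peak, and the Gr61a summit no replicate 2 peak. The coreceptor Ir25a had a strongest pooled summit of 83.9 at 89 bp from the start of Fnta. Ir68a, a humidity receptor, had one of 113 nearest to lncRNA:CR44718, and Ir21a, a cooling receptor, one of 58.2 nearest to asRNA:CR43609. That Ir21a summit had no replicate 2 peak. The longest receptor genes, Ir41a with 104437 bp and Ir40a with 24851 bp, had no summit in any of the 4 lists, whereas 65.9% of the 1013 protein-coding genes of at least 20 kb had an optimal summit and 84.8% a pooled one. The nearest pooled summit to Ir41a was 88338 bp from its body. These are only 2 genes, and whether reads can be placed at their loci was not examined.

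The sequence of receptor promoters, from 250 bp before to 50 bp after the annotated start, held fewer ATCGATA elements than promoters at large. ATCGATA was in 9 of 179 (5.03%), against 18.2% of protein-coding promoters, on either strand. CACGCG was in 4 (2.23%), against 6.12%, and CACGTG in 5 (2.79%), against 4.20%. The E-box CANNTG was in 83.2%, against 77.2%. TATAAA differed between the families. It was in 46 of 59 Or promoters (78.0%), 18 of 60 Gr promoters (30.0%) and 33 of 60 Ir promoters (55.0%), against 45.8% of all protein-coding promoters. None of these differences was tested, and a window that starts at the first coding base is not aligned like one that starts at a mapped TSS. Median GC content was 39.3% in receptor promoters and 38.0% in all.

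Around the summits themselves the motifs were as follows. In windows of 101 bp, ATCGATA was in 4 of the 16 at receptor genes (25.0%, exact binomial interval 7.27 to 52.4), against 2.60% of all optimal summits. The difference was not tested. The 4 with ATCGATA were the summits at Ir68b and Gr94a, the weaker summit at Gr97a and, nearest to its own receptor gene, the weaker summit at Gr93a. Those at Ir68b, Gr94a and Gr97a lay 13, 46 and 43 bp from the start of a neighbour. Promoters of all protein-coding genes held the element in 18.2% of cases, in longer windows of 300 bp. Neither CACGCG nor CACGTG was in any of the 16, against 3.32% and 2.00% of all optimal summits, and 0 of 16 allows a share of up to 18.8% (3 counts). CANNTG was in 4 of 16, against 37.5%, and TATAAA in 4 of 16, against 21.4%.

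Further lists of chemosensory genes were counted in the same windows. Odorant-binding protein genes, which carry odorants in the sensillum lymph, had an optimal summit in 7 of 51 cases (13.7%), against the 36.8% of all protein-coding genes. The strongest were Obp84a (735, nearest to CG1227), Obp99b (449, nearest to its own TSS) and Obp56f (444, nearest to tRNA:Ile-AAT-1-9). None of the coreceptor genes Orco, Ir8a, Ir25a and Ir76b had one, the last 3 of which are also among the 179 receptor genes, and Orco had no pooled summit. Of 11 transduction and perireceptor genes 2 had an optimal summit, the phospholipase C gene norpA (880) and the pickpocket channel gene ppk29 (262, nearest to eEF5). Transcription factors of chemosensory neuron development and receptor choice stood higher, with 10 of 17 (58.8%). The strongest summits were at sim (1697), pros (1638), Xbp1 (648), ato (359.7) and dac (305), each nearest to its own TSS. The 7 with none in the optimal set were amos, en, Eip93F, Fer1, onecut, Poxn and vvl. The lists differ in length, with a median body of 9095 bp for these 17 genes and 788 bp for the odorant-binding protein genes. Of protein-coding genes, 65.9% of those of at least 20 kb had a summit, against 30.0% of those of 1 to 2 kb. No share was counted for genes matched in length to either list, so the part of length was not tested.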

How the data were processed

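Per the labels, ChIP-seq was run on sonicated chromatin (200 to 800 bp) of whole embryos in 2 replicates. The authors deposited 4 peak lists on dm6, and the deposit's notes say that the pooled list was made from both alignments with a control and the optimal set from the pooled and replicate lists. The deposited signal value and −log10 q-value of each peak are the authors' own. The −log10 q-value, one value throughout the optimal set, was not used to select peaks. In the pooled list it ran from 0.323 to 4.21. Aligner, peak caller, their versions and the reproducibility threshold are not stated in the sources used here. The control was not analysed here. Read depth is unknown, so precision is that of counts of genes.

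Genes were taken from Ensembl release 115, without transposable elements, on X, 2L, 2R, 3L, 3R and 4; every peak lay within its arm in the Release 6 genome sequence. Summits were placed as start plus offset and are given 1-based. The nearest TSS was sought among transcripts of all genes. No test was made, since there is 1 group and genes are not replicates. The members, lists and named genes were chosen with earlier results of these data known: named were all members with an optimal summit, the 10 strongest with a pooled summit only, and 28 well known receptors. All 179 symbols were also in RefSeq. 1 list symbol, Zf30C, was read as zf30C. Counting was checked on 200 planted summits, of which 200 were recovered. Python 3.11.15, pandas 2.3.3, numpy 2.4.6 and scipy 1.17.1 were used.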

Additional observations from a re-analysis of the deposited data

How the results depend on the processing

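With the gene body only, 0 receptor genes (0 Or, 0 Gr, 0 Ir) had an optimal summit, against 12 (3, 5 and 4) with flanks of 2 kb. With flanks of 500 bp there were 5 (0, 3 and 2), and with 5 kb 33, of which 16 were Gr and 13 Ir. The pooled count of 44 became 7, 22 and 78 at these settings, that of other chemosensory genes (19) became 8 with the body only and 29 with 5 kb, and the share of all protein-coding genes (36.8%) became 13.3%, 27.7% and 50.9%. That share was 37.8% with peak overlap, 23.3% in the stronger 50% of peaks, where receptor genes with a summit nearest to their own TSS numbered 2 in place of 4, and 35.3% to 38.5% when either replicate was left out. The median signal of 339 became 380 with 500 bp, 413 with 5 kb and 435 in the stronger 50%; with the body only it has no value. Without replicate 2 or 3, 15 and 14 receptor genes had one of the strongest 6152 peaks of the other list, 11 of them in both. In the optimal set, the share of receptor genes was below that of all protein-coding genes at each flank, with peak overlap, in the stronger 50%, with either replicate left out and with RefSeq. The RefSeq annotation, an alternative chosen after seeing the data, gave the same 12 genes. No paired analysis was possible because there is 1 group.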

Other observations

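Over the full replicate lists, 62 of 179 receptor genes (34.6%) had a summit within 2 kb in replicate 2 and 38 (21.2%) in replicate 3, against 69.8% and 66.0% of all protein-coding genes. Both lists held 30000 peaks. The 32 receptor genes with a summit in both were 51.6% of those in replicate 2 and 84.2% of those in replicate 3. These overlaps were not counted over all protein-coding genes, so they cannot be called particular to receptor genes. Among Or genes 16 had a summit in replicate 2 and 8 in replicate 3, with 6 in both. By chromosome arm, 6 of 42 receptor genes on 3R had an optimal summit, against 38.0% of all protein-coding genes there, and 3 of 35 on 3L, against 38.8%. On X it was 2 of 25, against 36.1%, on 2L 1 of 31, against 36.5%, and on 2R 0 of 46, against 35.1%. Differences between arms were not tested.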
